A study of Mus musculus with 2 samples.

Results

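Genes of 10 scavenger and lectin receptors were followed through the cells of mouse liver. They were the stabilins Stab1 and Stab2, the mannose receptor Mrc1, the haemoglobin-haptoglobin receptor Cd163, the class A scavenger receptors Marco and Msr1, the C-type lectins Clec4f and Clec4g, the phosphatidylserine receptor Timd4 and the fatty acid transporter Cd36. The members were chosen by gene symbol, and all 10 were found among the 32285 genes of the count matrix. The assay was single-cell RNA sequencing in droplets, where each count is a unique molecular identifier (UMI), that is, 1 tagged cDNA molecule. The labels name 1 Cebp KO and 1 Cebp WT liver sample, and both came from mice fed for 2 weeks on HFCFD (high fat, high cholesterol, high fructose; 40% in the labels). The study made hepatocyte-specific Cebpa-deficient mice by crossing Cebpa fl/fl mice with a Cre line driven by the albumin promoter, either constitutive or inducible by way of ERT2. The study describes other work on 2-week HFCFD-fed livers in the constitutive line, but the labels of these samples name no Cre line, and their age and any pooling of livers are not stated in what was read here.

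Barcodes end in the suffix 1 or 2, and no label ties a suffix to a genotype. All values are therefore given for the library with suffix 1 and the library with suffix 2 side by side, as unassigned libraries. No genotype was compared, and with 1 library of each kind no test was run.

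Scavenger receptors bind modified lipoproteins, haemoglobin complexes, matrix fragments and dying cells, and lectins bind sugars on glycoproteins. The liver sinusoid is lined by endothelial cells that take up soluble waste from the blood, while Kupffer cells, the resident macrophages within the sinusoid, take up particles and aged cells. Receptors of these families are used as markers of both cell types, and some are shared between them.

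Cell classes were set without the 10 members, from marker genes fixed in lists of their own. A cell with UMIs of at least 4 of 8 macrophage markers, including all 3 C1q genes, was Kupffer-gated when it also had at least 4 of 7 Kupffer markers (Vsig4, Cd5l, Clec1b and others) and other macrophage-gated when it had at most 2 of them. Endothelial-gated cells had at least 4 of 8 endothelial markers, and hepatocyte-gated cells had at least 5000 UMIs with at least 5% of them from 10 hepatocyte genes and few markers of any other class. This gave 246 and 418 Kupffer-gated cells, 18 and 22 other macrophage-gated cells, 116 and 145 endothelial-gated cells and 613 and 477 hepatocyte-gated cells with suffix 1 and suffix 2. The median Kupffer-gated cell had UMIs of 7 Kupffer markers and of 0 of 6 sinusoidal endothelial markers in each library, and the median endothelial-gated cell had 6 and 5 sinusoidal markers and 1 Kupffer marker. Hepatocyte RNA was present in every class, with UMIs of all 10 hepatocyte genes in the median Kupffer-gated cell. B-gated cells, taken here to lack all members, were used as the level of free RNA, RNA from burst cells that enters all droplets. Whether B cells express any member themselves was not tested.

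The libraries held 60048646 and 52355243 UMIs, and 11617 and 6088 cells were kept, with a median of 1424 and 2309.5 UMIs. The median mitochondrial share per barcode was 4.07% and 41.3%, and the limit of 25% left out 5681 and 8913 barcodes. The libraries shared 81 barcode sequences, 34 of them kept in both, and no count of members changed when these were left out.

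All members lie on GRCm38 as annotated in GENCODE M21. Stab1 (ENSMUSG00000042286) spans chromosome 14 from 31139013 to 31168641 on the minus strand, with 69 exons in its longest transcript. Stab2 (ENSMUSG00000035459) spans chromosome 10 from 86841198 to 87008025 on the minus strand, also with 69 exons. Mrc1 (ENSMUSG00000026712, 30 exons) is at 14229392 to 14332057 of chromosome 2 on the plus strand. Cd163 (ENSMUSG00000008845, 17 exons) is at 124304656 to 124330527 of chromosome 6 on the plus strand, and Clec4f (ENSMUSG00000014542, 7 exons) is at 83644542 to 83656187 of the same chromosome on the minus strand. Marco (ENSMUSG00000026390, 17 exons) is at 120474538 to 120505024 of chromosome 1 on the minus strand. Chromosome 8 carries both Msr1 (ENSMUSG00000025044, 9 exons) at 39581685 to 39642673 and Clec4g (ENSMUSG00000074491, 4 exons) at 3707064 to 3720651, each on the minus strand. Timd4 (ENSMUSG00000055546, 9 exons) is at 46810800 to 46844332 of chromosome 11 on the plus strand, and Cd36 (ENSMUSG00000002944, 15 exons) is at 17781690 to 17888801 of chromosome 5 on the minus strand. Stab1, Stab2 and Clec4g overlap other genes on the opposite strand, and Mrc1 holds Mir511 on its own strand, so their counts can hold reads of a neighbour.

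The promoter windows of 4 members are shown because these genes stood at the ends of the division described below, with Clec4f and Timd4 on the Kupffer side and Stab2 and Clec4g on the endothelial side. Each window runs from 250 bases before to 50 bases after the RefSeq start (GRCm38.p6), and windows were found for 9 of the 10 members, all but Msr1. Clec4f is at chr6:83656067-83656366 on the minus strand, Timd4 at chr11:46810549-46810848 on the plus strand, Stab2 at chr10:87007893-87008192 on the minus strand and Clec4g at chr8:3720602-3720901 on the minus strand. Capitals mark matches to 3 short motifs searched on both strands, the PU.1-type GAGGAA, the GATA-type AGATAA and the MAF-type site TGCTGA. No match overlapped another in the member windows.
Clec4f: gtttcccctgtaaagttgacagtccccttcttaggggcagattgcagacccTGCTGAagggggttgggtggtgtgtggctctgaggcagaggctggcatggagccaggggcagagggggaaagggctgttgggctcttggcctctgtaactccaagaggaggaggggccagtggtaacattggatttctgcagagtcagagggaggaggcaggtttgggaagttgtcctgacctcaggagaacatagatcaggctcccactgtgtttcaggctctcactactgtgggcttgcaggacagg
Timd4: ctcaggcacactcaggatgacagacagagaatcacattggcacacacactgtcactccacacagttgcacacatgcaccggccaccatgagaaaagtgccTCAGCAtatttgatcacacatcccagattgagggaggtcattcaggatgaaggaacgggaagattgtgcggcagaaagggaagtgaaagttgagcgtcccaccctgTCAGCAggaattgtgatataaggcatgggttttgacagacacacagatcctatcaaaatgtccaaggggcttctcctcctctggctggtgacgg
Stab2: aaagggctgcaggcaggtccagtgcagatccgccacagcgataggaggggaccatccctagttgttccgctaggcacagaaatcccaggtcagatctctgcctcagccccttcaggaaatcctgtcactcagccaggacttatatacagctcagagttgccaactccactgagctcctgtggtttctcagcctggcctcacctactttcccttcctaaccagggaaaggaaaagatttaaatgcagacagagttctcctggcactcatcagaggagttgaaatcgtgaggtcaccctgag
Clec4g: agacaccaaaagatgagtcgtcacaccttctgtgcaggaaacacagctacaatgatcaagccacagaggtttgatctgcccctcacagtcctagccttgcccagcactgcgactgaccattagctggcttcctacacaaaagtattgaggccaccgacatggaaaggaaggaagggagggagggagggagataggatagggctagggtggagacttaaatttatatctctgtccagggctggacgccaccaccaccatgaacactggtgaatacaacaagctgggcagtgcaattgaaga

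The site TGCTGA was present in 4 of the 9 member windows (Stab1, Clec4f, Timd4 and Cd36) and in 19.5% of all 32851 promoter windows of the same length. GAGGAA was present in 3 (Stab1, Mrc1 and Marco) and in 28.3% of all windows, and AGATAA in 0 of 9 and in 11.2% of all windows. Timd4 held 2 matches and Clec4f 1, all to TGCTGA, and the windows of Stab2 and Clec4g held no match to any of these letters.

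The members fell into a Kupffer set, an endothelial set and a shared set, and none was highest in hepatocyte-gated or other macrophage-gated cells. Levels were taken as CPM, the summed UMIs of a gene per 1000000 summed UMIs of the class, with exact Poisson 95% intervals that cover counting error only. With suffix 1, 5 members were highest in Kupffer-gated cells (Cd163, Marco, Msr1, Clec4f and Timd4) and 5 in endothelial-gated cells (Stab1, Stab2, Mrc1, Clec4g and Cd36). With suffix 2 the counts were 6 and 4, because Mrc1 changed sides.

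**Figure D1:**
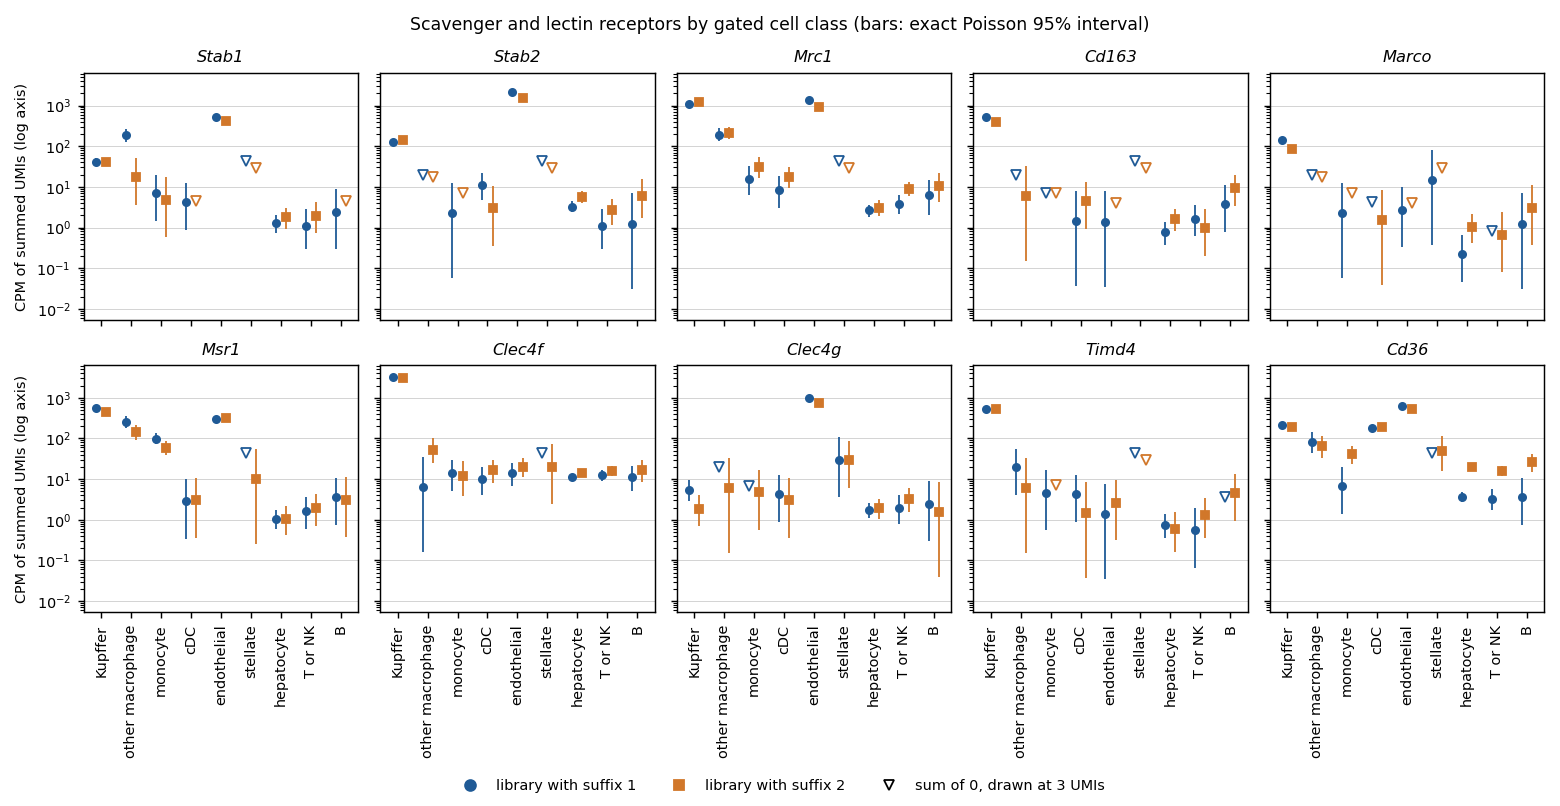
CPM of each member (log vertical axis) in 9 gated classes, with points for the library with suffix 1 (circles) and suffix 2 (squares), bars for the exact Poisson 95% interval, and open triangles for sums of 0 drawn at 3 UMIs. Clec4f, Timd4, Cd163 and Marco stand apart in Kupffer-gated cells, Clec4g stands apart in endothelial-gated cells, and Mrc1, Msr1 and Cd36 are raised in both.

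The Kupffer set comprised Clec4f, Timd4, Cd163 and Marco. Clec4f, a galactose-binding lectin of Kupffer cells, was at 3303 CPM (95% interval 3230 to 3377) in Kupffer-gated cells of the library with suffix 1 and 3011.5 CPM (2952 to 3072) in that with suffix 2. In endothelial-gated cells it was at 13.9 CPM (6.65 to 25.5) and 19.9 CPM (11.1 to 32.8), and in B-gated cells at 11.1 CPM (5.08 to 21.1) and 16.9 CPM (8.42 to 30.2). Its endothelial level thus did not differ from the free RNA level beyond the intervals, and Kupffer-gated cells were 238-fold (129 to 497) and 152-fold (91.9 to 271) above endothelial-gated cells. Of all Clec4f UMIs in kept cells, 77.6% and 80.1% were in Kupffer-gated cells.

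Timd4, also called Tim-4, which binds phosphatidylserine on dying cells, was at 519 CPM (491 to 549) and 517 CPM (492 to 542) in Kupffer-gated cells. Endothelial-gated cells held 1 and 2 Timd4 UMIs in all, so that the Kupffer level was 375-fold (67.1 to 14811) and 195-fold (54.0 to 1613) higher. The level was nearly the same in both libraries, with overlapping intervals.

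Cd163, which clears haemoglobin bound to haptoglobin, was at 519 CPM (490 to 548) in the first library (suffix 1) and 388 CPM (367 to 410) in the second (suffix 2) in Kupffer-gated cells. It was at 1 UMI and 0 UMIs in endothelial-gated cells, which put Kupffer-gated cells 374-fold (67.0 to 14787) higher with suffix 1 and at least 97.7-fold higher with suffix 2, taking 3 UMIs for the sum of 0. Marco, which binds bacteria and particles, was at 139 CPM (124 to 155) and 87.4 CPM (77.4 to 98.2), against 2 and 0 endothelial UMIs. In Kupffer-gated cells Cd163 and Marco were both lower with suffix 2 beyond the counting intervals, as were Msr1 and Clec4f, while Mrc1 was higher and Timd4, Stab1, Stab2, Clec4g and Cd36 were not separated. In endothelial-gated cells Mrc1 was instead lower with suffix 2 (876 to 1016 against 1283 to 1455 CPM). Stab2 (1409 to 1585 against 2080 to 2297 CPM) and Clec4g (698 to 824 against 899 to 1044 CPM) were lower there too, and Stab1, Msr1 and Cd36 overlapped. With 1 library of each suffix, a difference between libraries has no replicate check.

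The endothelial set comprised Clec4g, Stab2 and Stab1. Clec4g, the lectin LSECtin of sinusoidal endothelial cells, was at 969 CPM (899 to 1044) in the first library (suffix 1) and 759 CPM (698 to 824) in the second (suffix 2) in endothelial-gated cells. In Kupffer-gated cells it was at 5.46 CPM (2.91 to 9.33, 13 UMIs) and 1.87 CPM (0.685 to 4.06, 6 UMIs), which overlapped its level in B-gated cells, 2.47 CPM (0.299 to 8.92) and 1.53 CPM (0.0388 to 8.55). The ratio of endothelial-gated to Kupffer-gated cells was 178 (103 to 335) and 407 (186 to 1113). Clec4g was the member with the sharpest endothelial restriction.

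Stab2, the hyaluronan scavenger receptor of the sinusoid, reached 2186 CPM (2080 to 2297) and 1495 CPM (1409 to 1585) in endothelial-gated cells. Unlike Clec4g, it was also well above free RNA in Kupffer-gated cells, at 127 CPM (113 to 142) and 138 CPM (126 to 152), against 1.23 CPM (0.0313 to 6.88) and 6.13 CPM (1.67 to 15.7) in B-gated cells. Endothelial-gated cells were 17.2-fold (15.2 to 19.6) and 10.8-fold (9.68 to 12.1) above Kupffer-gated cells. Stab1, the other stabilin, which takes up modified lipoproteins, followed the same order, at 510 CPM (459 to 565) and 417 CPM (372 to 466) in endothelial-gated and 41.2 CPM (33.4 to 50.1) and 39.8 CPM (33.2 to 47.3) in Kupffer-gated cells. Its ratio was 12.4 (9.90 to 15.7) and 10.5 (8.51 to 12.98).

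Kupffer-gated cells without a UMI of any sinusoidal marker (Oit3, Dnase1l3, Gpr182, Bmp2, Ehd3 or Flt4) were also read on their own. In these 179 and 331 cells Stab2 was at 119 CPM (103 to 137) and 136 CPM (121 to 151), and 53.1% and 55.6% of them had a Stab2 UMI. Stab1 was at 34.7 CPM (26.2 to 45.05) and 39.9 CPM (32.3 to 48.7) in the same cells. Clec4g was at 3.72 CPM (1.36 to 8.09) and 2.08 CPM (0.675 to 4.85), and the endothelial receptor gene Kdr was at 1.86 CPM (0.383 to 5.43) and 3.33 CPM (1.44 to 6.55). Pecam1, an adhesion gene of endothelial and some blood cells, was at 79.9 CPM (66.7 to 94.9) and 106 CPM (93.8 to 120), with a UMI in 40.2% and 44.4% of these cells, so the endothelial genes did not all lie near 0. Kdr and Pecam1 are themselves markers of the endothelial gate. Cells that also passed that gate were left out, so the gating in part sets their levels here. Both stabilins were therefore about as high in Kupffer-gated cells without sinusoidal markers as in all Kupffer-gated cells, while Clec4g overlapped its B-gated interval.

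**Figure D2:**
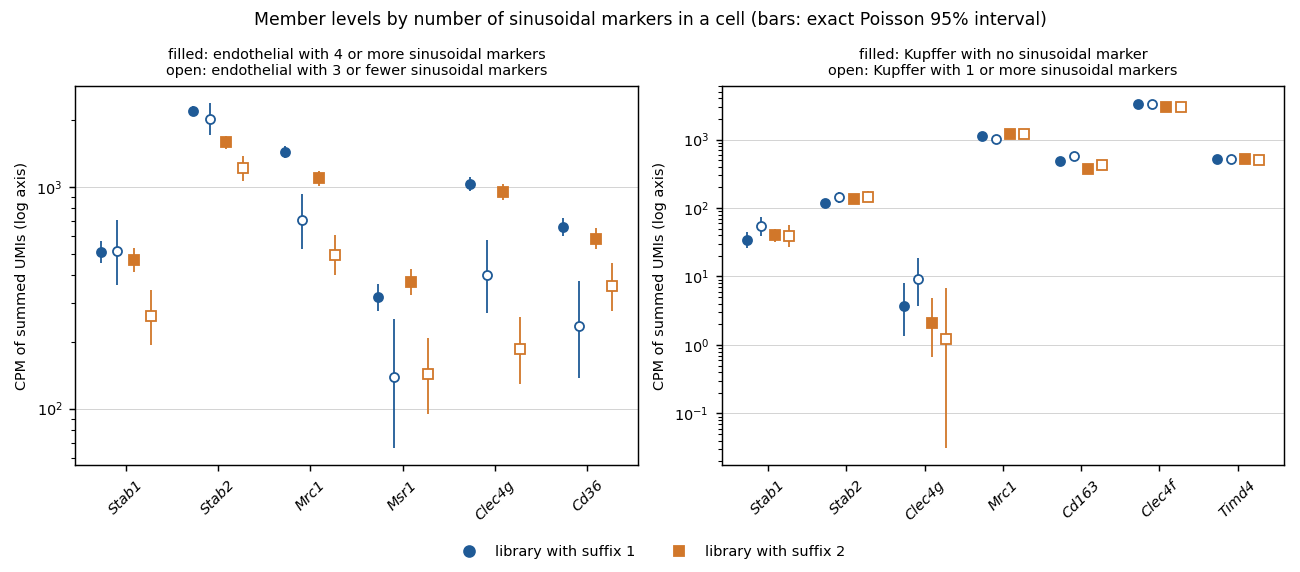
CPM (log vertical axis, exact Poisson 95% bars) of members in endothelial-gated cells with at least 4 (filled) or at most 3 (open) sinusoidal markers, left, and in Kupffer-gated cells with none (filled) or at least 1 (open), right, for the libraries with suffix 1 (circles) and suffix 2 (squares). On the right Stab2 stays between 119 and 147 CPM in all 4 groups, and on the left Clec4g, Mrc1, Msr1 and Cd36 are lower in cells with fewer sinusoidal markers.

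Cells that passed both the macrophage and the endothelial gate, 24 and 41 in number, were left out of every class as possible doublets. They carried receptors of both sets, with Clec4f at 1965 CPM (1821 to 2117) and 2451 CPM (2314 to 2594) and Clec4g at 424 CPM (359 to 498) and 392 CPM (339 to 452). Marco was at 94.0 CPM (64.7 to 132) and 174 CPM (139 to 215), with suffix 2 above its level in Kupffer-gated and endothelial-gated cells alike. Their median of 15132 and 12112 UMIs was above that of Kupffer-gated cells, 9302.5 and 6955.

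Mrc1, Msr1 and Cd36 were shared between the classes. Mrc1, also called CD206, binds mannose-ended glycoproteins and collagen fragments. It was at 1367 CPM (1283 to 1455) in endothelial-gated and 1082.5 CPM (1041 to 1125) in Kupffer-gated cells with suffix 1, and at 944 CPM (876 to 1016) and 1213 CPM (1175 to 1251) with suffix 2. The order of the 2 classes was thus opposite in the libraries, with ratios of 1.26 (1.17 to 1.36) and 0.779 (0.718 to 0.844), both within 1.5-fold of equality. No other member changed its highest class.

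Msr1, the type A scavenger receptor for modified LDL, was at 556 CPM (527 to 587) and 436 CPM (414 to 460) in Kupffer-gated cells and at 301 CPM (262 to 344) and 317 CPM (278 to 359) in endothelial-gated cells. It was low in cDC-gated cells, at 2.82 and 2.98 CPM, and neutrophil-gated cells held 1 and 0 UMIs. Other macrophage-gated cells stood at 258 CPM (184 to 351) and 142 CPM (91.1 to 212) and monocyte-gated cells reached 98.7 CPM (71.4 to 133) and 59.4 CPM (38.5 to 87.8). With suffix 1 the endothelial and other macrophage levels overlapped, and with suffix 2 the other macrophage and monocyte intervals did not overlap, 91.1 to 212 against 38.5 to 87.8.

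Cd36, which binds long-chain fatty acids and oxidized LDL, was at 617 CPM (561 to 677) and 528 CPM (478 to 583) in endothelial-gated cells, and at 213 CPM (195 to 232) and 192 CPM (177 to 208) in Kupffer-gated cells. The endothelial level was 2.90-fold (2.55 to 3.30) and 2.75-fold (2.42 to 3.13) that of Kupffer-gated cells. Conventional dendritic cells (cDC-gated, at least 3 of 6 markers) came next with 181 CPM (151 to 215) and 188 CPM (157 to 224), which overlapped the Kupffer level in both libraries. Within the cDC gate, the 27 and 32 cells with a UMI of Xcr1, the receptor of the cross-presenting cDC1 subset, had 267 CPM (222 to 318) and 230.2 CPM (190 to 277), and the 22 and 19 cells without one had 20.2 CPM (6.57 to 47.2) and 72.4 CPM (38.5 to 124). Xcr1 is itself a marker of the gate, and cells with an Xcr1 UMI were deeper, with a median of 14591 and 14600 UMIs against 9282.5 and 8678.

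A call across the whole gene table puts these ratios in context. Genes were called when their CPM was at least 4-fold apart in the same direction in each library, with at least 10 UMIs over both classes in each. Endothelial-gated cells were higher than Kupffer-gated cells for 3 of 10 members (Stab1, Stab2 and Clec4g), against 7.19% of the 11148 genes tested. They were lower for 4 of 10 (Clec4f, Timd4, Cd163 and Marco), against 6.02%. The median log2 ratio over the members was -0.28 and -0.41, beside -0.01 and 0.05 over all genes tested, so the members were spread to both sides rather than shifted as a group.

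**Figure D3:**
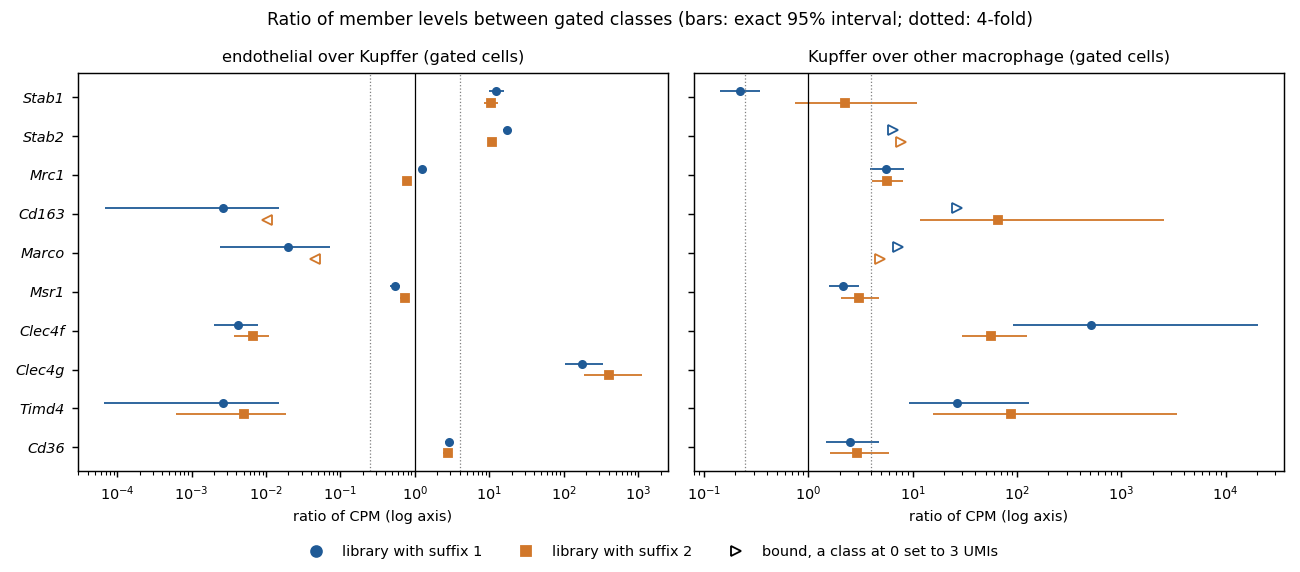
Ratio of CPM (log horizontal axis) of endothelial-gated over Kupffer-gated cells, left, and of Kupffer-gated over other macrophage-gated cells, right, for each member in the libraries with suffix 1 (circles) and suffix 2 (squares), with exact 95% bars and dotted lines at 4-fold. Open triangles are bounds where a class had a sum of 0, and Clec4g is not drawn on the right, where it had under 10 UMIs in a library.

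Kupffer-gated cells were set against the other macrophages, which carry the C1q genes but few Kupffer markers. Of 9 members with enough UMIs, 6 were at least 4-fold higher in Kupffer-gated cells in each library (Stab2, Mrc1, Cd163, Marco, Clec4f and Timd4), against 1.1% of 10346 genes tested, and 0 were lower, against 1.39%. With Leiden clusters in place of the gates the count was 3 (Stab2, Cd163 and Clec4f), the calls of Mrc1, Marco and Timd4 were lost, and Marco was highest in other macrophages with suffix 2, a class of 13 cells. The median log2 ratio over the 9 members was 2.71 and 2.51, beside -0.03 and 0.01 over all genes. The other macrophage class was small, 18 and 22 cells with 155008 and 168821 UMIs, so that 3 UMIs correspond to 19.4 and 17.8 CPM. A gene of low level in Kupffer-gated cells could therefore not be called higher. Cxcl13 was such a gene, at 53.3 and 45.1 CPM against 0 in other macrophage-gated cells. The share of 1.1% includes such genes, so it understates how often a gene of higher level is called.

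Other macrophage-gated cells held Mrc1, Msr1 and Cd36 as a sum, but the median cell had 0 CPM of each in both libraries. For Cd36 the upper quartile was 0 as well, and its sums were 13 and 11 UMIs. Mrc1 was at 194 CPM (131 to 276) and 213 CPM (149 to 295), and Kupffer-gated cells were 5.59-fold (3.91 to 8.31) and 5.69-fold (4.10 to 8.13) higher. Msr1 was 2.16-fold (1.57 to 3.03) and 3.07-fold (2.05 to 4.80) higher in Kupffer-gated cells, and Cd36 was 2.54-fold (1.47 to 4.80) and 2.94-fold (1.63 to 5.93) higher. Msr1 and Cd36 were below the 4-fold limit in both libraries. Mrc1 was above it, but not with a mitochondrial limit of 10%, with means over cells or with Leiden clusters.

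The Kupffer set and Stab2 were at few or 0 UMIs in other macrophage-gated cells. Cd163 had 0 and 1 UMIs, Marco 0 and 0, Timd4 3 and 1, and Stab2 0 and 0, which put Stab2 at least 6.55-fold and 7.79-fold higher in Kupffer-gated cells. Clec4f had 1 and 9 UMIs, and Kupffer-gated cells were 512-fold (91.9 to 20225) and 56.5-fold (29.7 to 124) higher. With suffix 2 the highest other macrophage-gated cell had Clec4f at 2651 CPM, while the upper quartile was 0. Stab1 went the other way with suffix 1 only, at 187 CPM (125 to 269, 29 UMIs, 9 of them in 1 cell) against 41.2 CPM in Kupffer-gated cells, while with suffix 2 it was at 17.8 CPM (3.66 to 51.9, 3 UMIs).

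All 10 members were low in hepatocyte-gated cells of at least 5000 UMIs. They were between 0.227 and 11.4 CPM with suffix 1 and between 0.592 and 19.8 CPM with suffix 2, the highest being Clec4f and Cd36. Of 7 members with enough UMIs, 0 were at least 4-fold higher than in B-gated cells in each library, against 1.1% of 11140 genes, and 1 was lower, against 14.7%. That member was Cd163, with 10 and 11 hepatocyte UMIs against 3 and 6 B-gated UMIs and ratios of 0.204 (0.0526 to 1.16) and 0.177 (0.0599 to 0.582), so that the interval held 1 with suffix 1. Its call was lost with a mitochondrial limit of 10%, Leiden clusters, means over cells, a fold of 8 or all hepatocyte-gated cells. The count of 0 higher carries little, because the B-gated sums of the 7 members held between 0 and 17 UMIs, and a sum of 0 was taken as 3 UMIs, worth 3.70 and 4.60 CPM. Hepatocyte RNA in B-gated cells limits it further. Asgr1, of the 4 main classes highest in hepatocyte-gated cells, was at 428 and 561 CPM there against 233 and 299 CPM in B-gated cells. The 4-fold call can thus miss a gene that is highest in hepatocyte-gated cells. The median log2 ratio of hepatocyte-gated to B-gated cells was -0.50 and -0.40 over the members, beside -0.50 and -0.50 over all genes.

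Cd36 is the member with a known role in hepatocyte lipid uptake. It was at 3.63 CPM (2.68 to 4.82) in hepatocyte-gated cells of the library with suffix 1 and 19.8 CPM (16.6 to 23.5) in that with suffix 2. B-gated cells stood at 3.70 CPM (0.764 to 10.8) and 26.1 CPM (15.2 to 41.7), and T or NK-gated cells 3.31 CPM (1.71 to 5.78) and 15.8 CPM (11.6 to 20.9). The higher level with suffix 2 was thus present in lymphocytes too, and the hepatocyte level lay within the B-gated interval in each library. It was not present in endothelial-gated cells, at 617 and 528 CPM, or in Kupffer-gated cells, at 213 and 192 CPM. Hepatocyte RNA was present in every class, and whether hepatocytes themselves express Cd36 was not tested. The median hepatocyte-gated cell had 21638 and 12080 UMIs, against 3648 and 3047 in B-gated cells.

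Cells that met the hepatocyte rule but held under 5000 UMIs formed a class of their own, shallow hepatocyte-gated cells, with 8706 and 3416 cells or 74.9% and 56.1% of all kept cells and a median of 1143 and 1201 UMIs. Clec4f was at 28.0 CPM (25.1 to 31.1) and 37.4 CPM (32.3 to 43.1) in them, above the B-gated intervals of 5.08 to 21.1 CPM and 8.42 to 30.2 CPM. Cd36 was at 7.08 CPM (5.67 to 8.73) and 35.9 CPM (30.9 to 41.5), within the B-gated intervals. For the other 8 members the intervals overlapped those of B-gated cells, except that Cd163 was below with suffix 2. Against the narrower intervals of T or NK-gated cells, 4 members were above in both libraries (Stab2, Mrc1, Clec4f and Clec4g), as were Timd4 with suffix 1, at 2.32 to 4.43 CPM against 0.0667 to 1.99 CPM, and Cd36 with suffix 2, at 30.9 to 41.5 CPM against 11.6 to 20.9 CPM. Thinned to 1000 UMIs, which left out 3253 and 1378 cells, 2.81% (2.38% to 3.28%) and 3.24% (2.51% to 4.10%) of the shallow cells had a Clec4f UMI.

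The share of cells with a UMI was compared after each cell was thinned to 1000 UMIs. Before thinning, 20.4% and 16.8% of hepatocyte-gated cells had a Clec4f UMI against 4.97% and 4.403% of B-gated cells, but at 1000 UMIs the shares were 0.816% (0.265% to 1.89%) and 1.68% (0.727% to 3.28%) against 0.552% (0.0140% to 3.04%) and 2.52% (0.690% to 6.32%). After thinning, the share lay above that of B-gated cells beyond the Clopper-Pearson intervals for 8 members with suffix 1 and 9 with suffix 2 in Kupffer-gated cells, for 6 and 6 in endothelial-gated cells and for 0 and 0 in hepatocyte-gated cells. Clec4g overlapped the B-gated interval in Kupffer-gated cells of both libraries, and Stab1 with suffix 1.

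Cell-to-cell spread was read in the Kupffer-gated and endothelial-gated cells with at least 5000 UMIs, thinned to 5000. In the 196 and 299 Kupffer-gated cells, Clec4f was found in 99.0% (96.4% to 99.9%) and 98.7% (96.6% to 99.6%), and Mrc1 in 96.9% (93.5% to 98.9%) and 96.3% (93.5% to 98.1%). Msr1 was found in 88.8% and 85.0%, Timd4 in 83.2% and 83.9%, and Cd163 in 65.3% and 61.5%. Clec4f and Mrc1 were thus near-universal in Kupffer-gated cells, and Cd163 was missed in over 30% of them at this depth.

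Marco was found in 22.4% (16.8% to 28.9%) and 15.05% (11.2% to 19.6%) of the thinned Kupffer-gated cells, with up to 12 and 23 UMIs in 1 cell. Its Fano factor, the variance over the mean, which is 1 for counting alone, was 4.69 and 7.62, the highest of the 10 members in each library. Timd4 had 2.03 and 1.63, Msr1 1.64 and 1.5045, Cd163 3.14 and 3.34, and Stab2 1.14 and 1.15. Stab2 was therefore low but even, with a UMI in 43.9% (36.8% to 51.1%) and 46.8% (41.1% to 52.7%) of Kupffer-gated cells, whereas Marco was concentrated in a minority of cells.

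**Figure D4:**
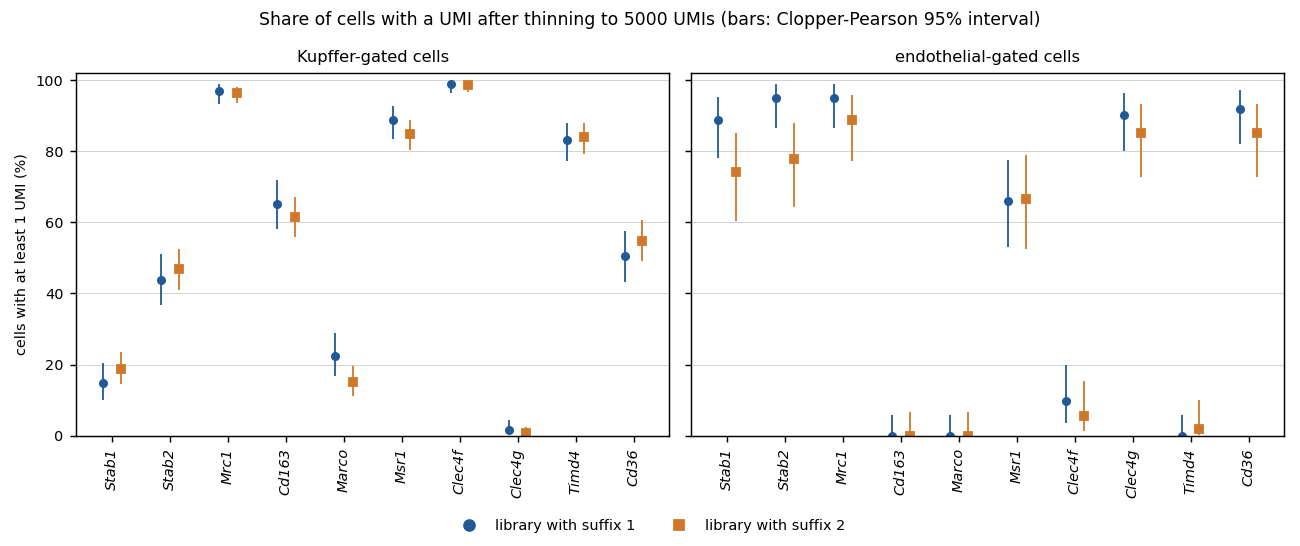
Share of Kupffer-gated cells (left, 196 and 299 cells) and endothelial-gated cells (right, 62 and 54 cells) with at least 1 UMI of each member after thinning to 5000 UMIs, in percent, with Clopper-Pearson 95% bars, for the libraries with suffix 1 (circles) and suffix 2 (squares). Mrc1 and Msr1 are found in most cells of both classes, and Cd163 and Marco in 0 of the endothelial-gated cells.

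Cells with and without a UMI of 1 receptor are described for the others, with Poisson intervals that leave out the spread between cells, which exceeded counting for Clec4f (Fano factors 3.41 and 2.94), Cd163 and Timd4. In Kupffer-gated cells with a Marco UMI (44 and 45 cells), Clec4f had a mean of 16.5 UMIs (15.4 to 17.8) and 15.9 UMIs (14.7 to 17.1) per thinned cell, against 16.97 (16.3 to 17.6) and 15.9 (15.4 to 16.4) in cells without one. Timd4 was at 2.84 UMIs (2.36 to 3.38) and 3.87 UMIs (3.31 to 4.49) in cells with Marco, against 2.41 (2.17 to 2.67) and 2.47 (2.28 to 2.67) without. Cd163 was at 2.05 UMIs (1.64 to 2.51) and 2.09 UMIs (1.69 to 2.56) in cells with Marco, against 2.82 (2.56 to 3.10) and 2.19 (2.01 to 2.37) without. In cells with a Timd4 UMI, Clec4f was at 17.6 UMIs (16.975 to 18.3) and 16.4 UMIs (15.9 to 16.9), against 13.2 (12.001 to 14.5) and 13.1 (12.1 to 14.2) in the 33 and 48 cells without. Cells without Timd4 were deeper before thinning, with a median of 11505 and 10664 UMIs against 10507 and 8106. With suffix 2 only, they were also lower in Mrc1 (4.75 against 6.59 UMIs), Msr1 (1.65 against 2.35) and Marco (0.25 against 0.570) without overlap of intervals. In cells with a Cd163 UMI Clec4f was at 17.6 UMIs (16.8 to 18.3) and 16.6 UMIs (16.004 to 17.2), against 15.6 (14.65 to 16.5) and 14.7 (14.003 to 15.4) without. Of the 5 receptors Clec4f, Timd4, Marco, Cd163 and Msr1, 4 were detected in 50.5% and 42.8% of cells and all 5 in 10.7% and 9.03%.

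Among thinned endothelial-gated cells (62 and 54), Stab2 was found in 95.2% (86.5% to 99.0%) and 77.8% (64.4% to 88.0%), with Fano factors of 6.41 and 6.68, the highest of the members in that class. Mrc1 was found in 95.2% and 88.9%, Clec4g in 90.3% and 85.2%, Cd36 in 91.9% and 85.2%, Stab1 in 88.7% and 74.1% and Msr1 in 66.1% and 66.7%. Cd163 and Marco were found in 0 of 62 and 0 of 54 cells, where the Clopper-Pearson interval reaches 5.78% and 6.60%.

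Endothelial-gated cells were then divided by how many of the 6 sinusoidal markers they carried. The 92 and 97 cells with at least 4 had Clec4g at 1032 CPM (955 to 1113) and 949 CPM (870.0 to 1032), and the 24 and 48 cells with at most 3 had 402 CPM (269 to 577) and 186 CPM (130 to 259). Mrc1 was at 1440 CPM (1350 to 1536) and 1093 CPM (1009 to 1183) against 707 CPM (526 to 929) and 495 CPM (399 to 606), and Msr1 and Cd36 were lower in the same cells without overlap of intervals. Stab2 was nearer to even, at 2203 CPM (2090 to 2320) and 1588 CPM (1486 to 1696) against 2037 CPM (1721 to 2394) and 1213 CPM (1061 to 1382), with overlap in suffix 1. Stab1 was at 510 CPM (456 to 568) and 469 CPM (414 to 529) against 513 CPM (361 to 707) and 261 CPM (193 to 345), so it was lower with suffix 2 only. Vwf, a gene of larger vessels, was at 1.54 and 7.05 CPM in the first group and at 97.0 and 154 CPM in the other, while Cd34, another gene of such vessels, was at 18.5 and 8.82 CPM in the first and at 0 UMIs and 10.6 CPM in the other. Cells with fewer markers were also shallower, with a median of 2136 and 1953.5 UMIs against 5654.5 and 5131, and the part of depth in the division was not tested.

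Outside the 4 main classes, Clec4g was at 20.7 CPM (12.035 to 33.1, 17 UMIs) and 25.8 CPM (15.016 to 41.3, 17 UMIs) in plasmacytoid dendritic (pDC-gated) cells. These intervals lie above those of B-gated and T or NK-gated cells in each library. No other member was raised there in both libraries.

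Other scavenger and lectin receptors were read from a list of 57 genes, of which 56 were in the matrix. Endothelial-gated cells were at least 4-fold higher than Kupffer-gated cells in each library for 6 of 43 with enough UMIs, or 14.0%, and lower for 19 of 43, or 44.2%, against 7.19% and 6.02% of all genes. The members stood at 3 of 10 and 4 of 10, so the share on the Kupffer side was of like size in the list and in the members. The 6 were Clec14a, Fcgr2b, Cd93, Pla2r1, Lyve1 and Clec1a. Fcgr2b, the inhibitory Fc receptor, was at 828 and 686 CPM in endothelial-gated and 2.10 and 4.35 CPM in Kupffer-gated cells, and Lyve1, a hyaluronan receptor, at 479.7 and 275 CPM against 5.04 and 3.42 CPM. Both were near absent from the Kupffer gate, unlike Stab1 and Stab2. The largest of the lower group were the ficolin Fcna (1195 and 944 CPM in Kupffer-gated against 4.16 and 5.30 CPM in endothelial-gated cells), Siglece, Cd300ld, Cd68, Axl and Clec12a.

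Against other macrophages, 3 of 40 list genes were at least 4-fold higher in Kupffer-gated cells (Fcna, Cd300ld and the collectin Colec12) and 5 of 40 were lower (Cd93, Fcgr2b, Havcr2, Clec4d and Clec4b1), against 1.1% and 1.39% of all genes. The median log2 ratio over the 40 was 0.19 and 0.08. Between hepatocyte-gated and B-gated cells 0 of 22 were higher and 4 of 22 lower (Cd22, Fcgr2b, Ly75 and Clec12a), Cd22 being a receptor of B cells at 162 and 141 CPM there. The lower share of 18.2% was near the 14.7% over all genes. Asgr1 was among the 22 and was not called higher, so the count of 0 carries little here too.

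The genes most like each member were found by Pearson correlation of log2(CPM + 10) over 30 class sums, 15 classes in each of the 2 libraries, among 12246 genes without gate markers. These correlations are descriptions, since the class sums of a library share its free RNA and differ in depth. Cd163 was most like Kcnj16 (r = 0.989) and Kcna2 (0.988), Timd4 most like Naip1 (0.984) and Slc1a3 (0.977), Clec4f most like Cxcl13 (0.958) and Kcnj16 (0.957), and Marco most like Smc1b (0.960) and Cxcl13 (0.959). Kcnj16 itself was at 192 and 197 CPM in Kupffer-gated cells and at 0 UMIs in endothelial-gated and other macrophage-gated cells.

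On the endothelial side, Stab2 was most like B3gnt3 (0.962) and She (0.952), Clec4g most like Ppfia2 (0.958) and Mmrn2 (0.957), and Stab1 most like Il1a (0.955) and Kctd12b (0.930). Mrc1 was most like 2610203C22Rik (0.930) and Dab2 (0.909), and Msr1 most like Parvb (0.922) and Lgmn (0.915). Cd36 was most like Gatm (0.925) and then Zfp366 (0.847). Among the members themselves, r was 0.94 for Mrc1 with Msr1 and 0.96 for Cd163 with Clec4f, and -0.13 for Timd4 with Clec4g.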

How the data were processed

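Liver cells of 1 Cebp KO and 1 Cebp WT sample were sequenced from 3' libraries, and the authors deposited 1 joined matrix of raw UMI counts per gene and barcode. Its header names Cell Ranger 7.1.0, and the submitters' processing notes name mm10, bcl2fastq 2.20.0 and STAR 2.7.2a. Whether intronic reads and strand were used in the counting is not stated in what was read here. Each UMI is counted at the 3' end of a transcript, so ratios and calls compare classes within a gene. Ranks and sums of CPM over members describe counted UMIs only.

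Barcodes with at least 500 UMIs, at least 200 genes and at most 25% of UMIs from 13 mitochondrial genes were kept. Classes were gated by the number of different markers with a UMI, and no member was a marker. The members, lists and tests were chosen with earlier results of these data known, and the gate limits after the marker distributions were seen. Cells that passed 2 gates were left out as possible doublets (150 and 153), and no doublet caller was used. UMIs were summed per class and library and scaled to CPM, with exact Poisson 95% intervals for levels, exact binomial (Clopper-Pearson) intervals for shares and intervals from the binomial split of both sums for ratios. All intervals cover counting error only. A sum of 0 was taken as 3 UMIs for a bound on a ratio. No p-value was computed, since each suffix is 1 library. The genes named outside the members were the other receptors past 4-fold, at most 6 per comparison and direction by the smaller ratio, and the 2 genes most correlated with each member. Kdr, Pecam1, Vwf, Cd34 and Xcr1 were chosen after their values were seen. Scripts were tested on simulated data and used Python 3.11.15 with numpy 2.4.6, scipy 1.17.1, pandas 2.3.3 and scanpy 1.11.5. The alternatives were other limits on mitochondrial share and UMIs, 1 more marker per gate, Leiden clusters, kept doublets, means over cells, subtraction of the B-gated level, other folds, other thinning depths and all hepatocyte-gated cells.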

Additional observations from a re-analysis of the deposited data

Results flagged for a closer look

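The barcodes over the mitochondrial limit, which enter no comparison above, held receptor UMIs above the level of B-gated cells. The 10 members summed to 161.33 CPM (156 to 167) in 5675 such droplets of at least 500 UMIs and 200 genes with suffix 1 and to 154.08 CPM (149 to 159) in 8886 with suffix 2, against 35.8 CPM (24.0 to 51.4) and 81.3 CPM (60.9 to 106) in B-gated cells. A few droplets carried part of this. The 5624 and 8815 droplets outside the Kupffer and endothelial gates had 85.4 CPM (81.2 to 89.8) and 111 CPM (107 to 115). They held 1527 of the 2985 member UMIs with suffix 1 and 2887 of the 4071 with suffix 2. With suffix 2 Cd36 had the most UMIs of any member, 1124 beside 1090 of Clec4f. Of the Cd36 UMIs, 1007 lay in droplets outside both gates, at 38.8 CPM there against 11.4 CPM with suffix 1. Of the droplets inside these gates, 32 and 32 passed the Kupffer gate. They had Clec4f at 1314 and 1259.5 CPM, Mrc1 at 517 and 703 CPM and Stab2 at 42.0 and 79.5 CPM. Another 19 and 39 passed the endothelial gate and had Stab2 at 811 and 986 CPM and Clec4g at 211 and 194 CPM, with Clec4f at 29.6 and 16.9 CPM. In the droplets of the Kupffer gate Clec4g had 0 UMIs in the first library and 6 in the second, the latter worth 26.5 CPM (9.73 to 57.7) beside 1.87 CPM in its kept Kupffer-gated cells.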

How the results depend on the processing

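Of 176 counts of members recomputed under other settings, 167 stayed within 1.5 times of the value reported and 9 did not. The endothelial against Kupffer calls (3 higher, 4 lower, the same members) held under every setting tried, except that a fold of 2 added Cd36. The number of members at least 4-fold higher in Kupffer-gated than in other macrophage-gated cells fell from 6 to 3 with Leiden clusters (Stab2, Cd163 and Clec4f remained) and to 3 with a fold of 8 (Cd163, Clec4f and Timd4), and a mitochondrial limit of 10% or means over cells left 5, without Mrc1. A fold of 2 added Msr1 and Cd36 to the 6. With Leiden clusters 1 member, Marco, was highest in other macrophages of suffix 2, a class of 13 cells. The call of 1 member lower in hepatocyte-gated than in B-gated cells became 0 with a mitochondrial limit of 10%, with Leiden clusters, with means over cells, with a fold of 8 and with all hepatocyte-gated cells, and 2 with a fold of 2. Subtracting the B-gated level leaves no value for that comparison. The cause of these changes was not tested. Of 820 recomputed CPM values, 184 left the reported interval, 111 upward and 73 downward, 42 of them under the limit of 10%. Leaving out barcodes found in both libraries, and taking Kupffer-gated cells without sinusoidal markers together with endothelial-gated cells of at most 1 Kupffer marker, were chosen after seeing the data and changed no call. The other macrophages, with 18 and 22 cells, limit every comparison with them. No paired analysis was possible because the matrix does not tie barcodes to the labelled samples and no result comes from a test.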
